A study of Mus musculus with 6 samples.

Results

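Cathepsins are the proteases that give the lysosome most of its capacity to break down proteins. The 10 genes described here are Ctsa, Ctsb, Ctsc, Ctsd, Ctsf, Ctsh, Ctsk, Ctsl, Ctss and Ctsz, taken by gene symbol from tables that list 27502 genes in each sample. All 10 were found, each under 1 identifier. Messenger RNA was measured by RNA-seq in vascular smooth muscle cells (contractile cells of arteries) taken from mouse aorta and cultured. Of the 6 samples, 3 received short interfering RNA (siRNA) against Ezh2 (siEzh2) and 3 were controls (control), all at 48 hours. The labels do not say what the control cells received, which siRNA sequences were used, the age or strain of the mice, or whether the 3 samples of a group are separate animals or cultures. The p-values therefore reflect only how much these samples vary, and that variation may be technical. Ezh2 is the methyltransferase of Polycomb repressive complex 2, and the comparison asks which cathepsin transcripts differed once its mRNA had been lowered.

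Most cathepsins are cysteine proteases of the papain family. They are made as inactive precursors, carried to the lysosome by mannose 6-phosphate receptors and activated there by removal of a propeptide. Cathepsin D is an aspartic protease and cathepsin A a serine carboxypeptidase. Some cathepsins are also secreted, and in the artery wall cathepsins K, L and S are known as enzymes that cut elastin and collagen. Cystatin C, encoded by Cst3, is their main inhibitor outside the cell and cystatin B, encoded by Cstb, inhibits them in the cytosol. Transcription factors of the MiT family (Tfeb, Tfe3 and Mitf) bind the sequence CACGTG and drive many lysosomal genes.

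The promoter windows of the members are shown because the called genes rose or fell within 1 family. RefSeq windows on GRCm38.p6, the assembly behind mm10, run from 250 bases before to 50 bases after an annotated start, and they were found for 8 of the 10 members (Ctsa has more than 1). Windows are printed for 3 of the cathepsins that passed the test (Ctsl, Ctsz and Ctsc), for Ctsd, which like Ctsa holds CACGTG at 2 places, and for Ctss. Capitals mark CACGTG, except in Ctss, where they mark GAAA, any 2 bases and GAAA again, the core of the interferon-stimulated response element.
Ctsl (chr13:64370471-64370770, minus strand): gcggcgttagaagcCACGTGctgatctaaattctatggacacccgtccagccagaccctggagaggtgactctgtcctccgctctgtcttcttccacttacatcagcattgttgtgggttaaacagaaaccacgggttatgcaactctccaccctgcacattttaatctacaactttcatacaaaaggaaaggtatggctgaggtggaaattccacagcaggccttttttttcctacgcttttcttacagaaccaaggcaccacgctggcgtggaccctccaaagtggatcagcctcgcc
Ctsz (chr2:174438990-174439289, minus strand): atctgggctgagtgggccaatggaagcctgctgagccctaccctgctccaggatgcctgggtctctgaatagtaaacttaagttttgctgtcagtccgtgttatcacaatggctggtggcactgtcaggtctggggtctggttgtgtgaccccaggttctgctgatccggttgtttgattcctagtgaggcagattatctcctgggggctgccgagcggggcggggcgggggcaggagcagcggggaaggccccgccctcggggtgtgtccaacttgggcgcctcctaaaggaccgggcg
Ctsc (chr7:88277835-88278134, plus strand): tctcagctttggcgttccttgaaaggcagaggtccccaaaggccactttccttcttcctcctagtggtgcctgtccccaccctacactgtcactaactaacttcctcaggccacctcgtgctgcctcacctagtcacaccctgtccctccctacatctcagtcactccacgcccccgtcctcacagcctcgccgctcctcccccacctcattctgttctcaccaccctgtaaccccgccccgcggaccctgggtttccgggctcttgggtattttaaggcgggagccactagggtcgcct
Ctsd (chr7:142387778-142388077, minus strand): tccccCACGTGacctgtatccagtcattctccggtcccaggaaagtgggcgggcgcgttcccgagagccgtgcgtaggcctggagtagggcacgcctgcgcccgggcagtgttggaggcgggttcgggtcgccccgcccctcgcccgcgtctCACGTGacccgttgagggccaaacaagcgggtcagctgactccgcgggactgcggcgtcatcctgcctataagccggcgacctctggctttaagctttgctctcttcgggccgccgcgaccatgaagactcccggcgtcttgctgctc
Ctss (chr3:95526536-95526835, plus strand): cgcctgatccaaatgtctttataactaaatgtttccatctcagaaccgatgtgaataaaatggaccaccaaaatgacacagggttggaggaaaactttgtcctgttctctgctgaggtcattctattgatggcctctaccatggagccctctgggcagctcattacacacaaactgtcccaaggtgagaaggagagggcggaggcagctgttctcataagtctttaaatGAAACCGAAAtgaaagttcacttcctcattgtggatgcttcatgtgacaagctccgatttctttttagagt

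CACGTG reads the same on both strands and stood in a window of 4 of the 8 matched members, Ctsl, Ctsd, Ctsa and Ctsf, while 7.15% of all 32851 windows of 300 bases hold it. The count is by gene and the share by window, and Ctsa has more than 1 window. Counted from the start used for each window, it began 236 bases before that of Ctsl, 245 and 98 bases before that of Ctsd and 79 bases before that of Ctsf. The whole Ctsl window lies inside the annotated gene (chr13:64359337-64370890), and so does the nearer match of Ctsd. In Ctsa it stood only in the window chr2:164833523-164833822, which lies inside the annotated gene. There it began 12 bases before the start used for that window and again at position 6, counting the start base as 1. The strict CLEAR palindrome, a longer motif that contains CACGTG, was in no member's window and in 0.326% of all windows. The interferon-stimulated core, searched on both strands, was in the window of Ctss, beginning 21 bases before its start, and in 3.44% of all windows. GGGCGG, the core of a GC box, was in windows of 5 members (Ctsc, Ctsd, Ctsf, Ctss and Ctsz) and in 35.7% of all windows on either strand. The window of Ctsd had 33 CG dinucleotides, more than 91.4% of all windows, and that of Ctsk had 2, with a median of 7 over all windows. A match is a description of the sequence and not a site shown to be bound.

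Levels are in FPKM, fragments per kilobase of exon scaled to library size, and every mean below is given ± SD over n = 3 samples per group. Ezh2 mRNA had 3.41, 3.59 and 3.88 FPKM in the controls and 1.20, 1.09 and 1.05 after knockdown. The groups did not overlap and the fall passed the test (adjusted p = 5.15e-05, limma on log2(FPKM + 1) with Benjamini-Hochberg adjustment over all 11869 genes tested, which is the test of every adjusted p below). Depth recovered from the values was 16080005 to 18753124 reads per sample. Smooth muscle markers were uneven. Acta2, the smooth muscle actin, was abundant and fell from 699 ± 14.8 to 537 ± 17.8 FPKM (log2 change −0.38, adjusted p = 7.07e-04). Tagln (transgelin) had 0.143 to 0.352 FPKM over all 6 samples and Myh11, the smooth muscle myosin heavy chain, a mean of 1.83 ± 0.149 in control and 1.12 ± 0.181 after knockdown. Antisense genes share 67.9% of the exon bases of Tagln, and its level may lack reads of those bases. Of 8 tested smooth muscle markers 6 were lower, 1 higher and 1 not called. The other 4 of the 12 listed (Tagln, Mylk, Des and Synpo2) were too low to be tested. Cnn1, which was not called, had 1.14 ± 0.203 FPKM in control and 1.04 ± 0.0829 after knockdown. In fibroblast and adventitial markers 7 of 11 tested genes were lower and 1 was higher. Over all tested genes 22.7% were lower and 24.1% higher. The 13 mitochondrially encoded mRNAs, a sign of RNA quality, summed to 19081 to 19794 FPKM in control samples and 15861 to 16976 after knockdown. The part of these shifts in the cathepsin results was not tested.

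In the knockdown samples 3 cathepsins rose (Ctsl, Ctsb and Ctsz), 2 fell (Ctsh and Ctsc), 4 did not pass the test (Ctsk, Ctsf, Ctsd and Ctsa), and Ctss was too low to be tested. A gene had to reach a mean of 1 FPKM in at least 1 group to be tested, and it was called at an adjusted p under 0.05. With 5 of 9 tested members called, the share (55.6%) has to be read against the 46.9% of all tested genes that were called, 24.1% higher and 22.7% lower. Groups did not overlap in 6 of the 9, and in 58.1% of all tested genes. Both shares lie near those of all tested genes. Calls were more frequent among better expressed genes, and with a minimum mean of 5 FPKM, which all 9 members pass, 59.5% of 7179 genes were called. The median size of change was 0.16 on the log2 scale over the 9 members and 0.16 over all tested genes. The median signed change was 0.09 and 0.01.

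**Figure D1:**
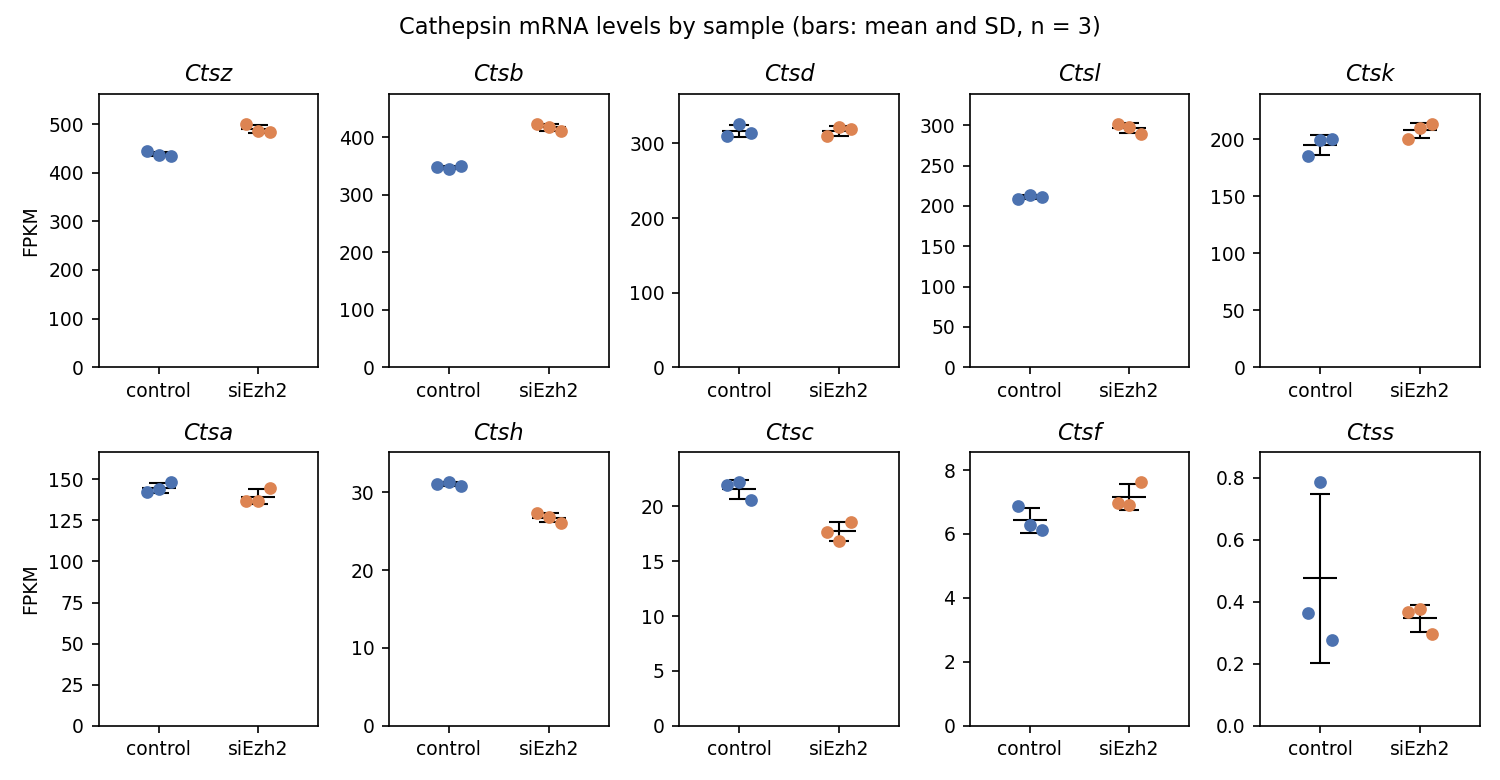
FPKM of each of the 10 cathepsins on a linear axis from 0, ordered by control mean, with 3 control (blue) and 3 siEzh2 (orange) samples as points and bars for mean and SD. Points of the groups are separate for Ctsz, Ctsb, Ctsl, Ctsh, Ctsc and Ctsf, and overlap for Ctsd, Ctsk, Ctsa and Ctss.

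Among the 5 cysteine endopeptidases, which cut within protein chains, 2 rose, none fell and 2 were not called. Ctsb, which can also remove residues from the end of a protein, was counted with them. Each catalytic class has few members, and 46.9% of all tested genes were called. Ctsl, cathepsin L, a general lysosomal endopeptidase that also cuts elastin, is ENSMUSG00000021477 at chr13:64359337-64370890, minus strand (build mm10). Its control samples had 209, 214 and 211 FPKM and its siEzh2 samples 302, 298 and 289 FPKM. Every siEzh2 sample lay well above every control sample, and the step between groups was far larger than the spread inside them. The mean went from 211 ± 2.45 to 296 ± 6.23 FPKM, 1.40 times higher. On the log2(FPKM + 1) scale the change was 0.49 (SE 0.0339, 95% interval 0.40 to 0.57, adjusted p = 1.73e-04). Of all tested genes, 9.29% had a larger change in either direction. In the annotation 26.8% of the exon bases of Ctsl are also exon of an antisense gene and 6.09% of another gene on its own strand. Neither of those genes was analysed here, and the sources do not state whether strand was used in counting, so the Ctsl level may include or lack reads of the shared bases.

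Ctsb, cathepsin B, which acts both as an endopeptidase and as an exopeptidase, is ENSMUSG00000021939 at chr14:63122462-63145923, plus strand. It had 348, 344 and 349 FPKM in control samples and 423, 419 and 411 FPKM after knockdown. The groups were clearly apart here too, with a smaller step than in Ctsl. Its mean rose from 347 ± 2.54 to 418 ± 6.02 FPKM, 1.20 times, with a log2 change of 0.27 (95% interval 0.19 to 0.34, adjusted p = 0.00114). Fdft1, an enzyme of cholesterol synthesis on the opposite strand, shares 12.8% of the exon bases of Ctsb. It had 32.9 ± 0.519 FPKM in control samples and 32.9 ± 1.62 after knockdown (adjusted p = 0.982).

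Ctsk, cathepsin K, is the main collagen-degrading protease of osteoclasts and is also made by smooth muscle cells. The gene, ENSMUSG00000028111, lies at chr3:95499256-95509362, plus strand. It had 185, 199.5 and 200.7 FPKM in control samples and 200.7, 210.1 and 214 FPKM after knockdown. The highest control sample and the lowest siEzh2 sample were almost equal. The log2 change was 0.09 (95% interval −0.02 to 0.21, adjusted p = 0.154), so a rise of up to 0.21 remains within the interval. Limma-voom on recovered reads, which weights genes by their read number, did call it (log2 change 0.09, adjusted p = 0.0161).

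Ctsf, cathepsin F, a papain-family protease with a long propeptide, was expressed at a low level. The gene, ENSMUSG00000083282, lies at chr19:4855130-4860918, plus strand. Its control samples had 6.86, 6.27 and 6.13 FPKM and its siEzh2 samples 6.95, 6.90 and 7.61 FPKM. The groups did not overlap, but by a narrow gap, and the log2 change of 0.14 (95% interval 0.00 to 0.27) did not pass (adjusted p = 0.0892). Limma-voom on recovered reads called Ctsf as well (log2 change 0.16, adjusted p = 0.0413).

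Ctss, cathepsin S, is made mostly by antigen-presenting cells, where it trims the invariant chain of MHC class II, and is known to be induced by interferon. The gene, ENSMUSG00000038642, lies at chr3:95526786-95556403, plus strand. It was close to silent, with 0.363, 0.785 and 0.278 FPKM in control samples and 0.366, 0.377 and 0.296 FPKM after knockdown. These values stand for 36 reads in all control samples together and 24 after knockdown. One control sample was the highest of all 6, and the siEzh2 samples lay inside the control range. A difference was not detectable at this depth. Ctss lies 17.4 kb downstream of Ctsk on chromosome 3, on the same strand, at a far lower level. Cd74, the invariant chain itself, had 0 to 0.0962 FPKM over the 6 samples and Ciita, the master activator of MHC class II genes, 0 to 0.0326.

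All 3 cysteine exopeptidases, which remove residues from the end of a protein, passed the test, 1 higher and 2 lower. With 3 genes, and 46.9% of all tested genes called, this is a count and not a trait of the class. Ctsz, cathepsin Z (also called X), takes single residues from the carboxyl end. The gene, ENSMUSG00000016256, lies at chr2:174427493-174439039, minus strand. It had 444, 437 and 435 FPKM in control samples and 500.4, 486 and 484 FPKM after knockdown. No siEzh2 sample reached down to the control values. The mean rose from 439 ± 4.60 to 490.1 ± 9.02 FPKM, 1.12 times, with a log2 change of 0.16 (95% interval 0.08 to 0.24, adjusted p = 0.00942). That is the smallest of the 5 called changes, and 50.7% of all tested genes had a larger one.

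Ctsh, cathepsin H, works mainly as an aminopeptidase. The gene, ENSMUSG00000032359, lies at chr9:90054152-90076089, plus strand. Its values were 31.1, 31.3 and 30.8 FPKM in control samples and 27.3, 26.8 and 26.1 FPKM after knockdown. Control samples were tightly grouped and all lay above the siEzh2 samples. The mean fell from 31.1 ± 0.226 to 26.7 ± 0.624 FPKM, with a log2 change of −0.21 (95% interval −0.29 to −0.13, adjusted p = 0.00362). In FPKM the control mean was 1.16 times the siEzh2 mean. Ctsh had no exon base shared with another gene.

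Ctsc, cathepsin C or dipeptidyl peptidase 1, is known for activating the granule serine proteases of leukocytes and mast cells. The gene, ENSMUSG00000030560, lies at chr7:88278085-88310888, plus strand. It had 21.9, 22.2 and 20.6 FPKM in control samples and 17.7, 16.9 and 18.6 FPKM after knockdown. The lowest control sample still exceeded the highest siEzh2 sample. Its mean fell from 21.6 ± 0.878 to 17.7 ± 0.873 FPKM, with a log2 change of −0.27 (95% interval −0.39 to −0.15, adjusted p = 0.00631). Of the 7 granule proteases in the tables, such as Elane, Prtn3 and Cma1, none reached the filter, and together they had 0.0869 to 0.413 FPKM in control samples and 0.435 to 0.764 after knockdown.

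Neither cathepsin of another catalytic class passed the test. Ctsd, cathepsin D, the abundant aspartic endopeptidase, had 309.7, 326 and 314 FPKM in control samples and 309.6, 322 and 319 FPKM after knockdown. The gene, ENSMUSG00000007891, lies at chr7:142375911-142388038, minus strand. Both groups covered nearly the same range. The log2 change was 0.00 with a 95% interval from −0.09 to 0.09 (adjusted p = 0.989), which leaves room for a change of up to 0.09 either way. Of its exon bases 34.4% are shared with an annotated gene on the same strand that was not analysed here, and the Ctsd level may include or lack reads of those bases.

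Ctsa, cathepsin A, is a carboxypeptidase that also holds sialidase (Neu1) and beta-galactosidase (Glb1) in a stable complex. The gene, ENSMUSG00000017760, lies at chr2:164832873-164841032, plus strand. It had 142, 144 and 148 FPKM in control samples and 136.8, 136.6 and 145 FPKM after knockdown. The groups overlapped, and the log2 change was −0.05 (95% interval −0.15 to 0.04, adjusted p = 0.292). Of its exon bases 17.4% overlap Pltp and Neurl2 on the other strand, neither of which was called. Neu1 fell from 20.4 ± 0.442 to 18.0 ± 0.884 FPKM (log2 change −0.17, adjusted p = 0.0214), which no longer passed when control sample 1 (adjusted p = 0.0570) or 3 (adjusted p = 0.0687) was left out. Glb1 had 42.7 ± 2.14 FPKM in control samples and 40.3 ± 0.236 after knockdown (adjusted p = 0.179).

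**Figure D2:**
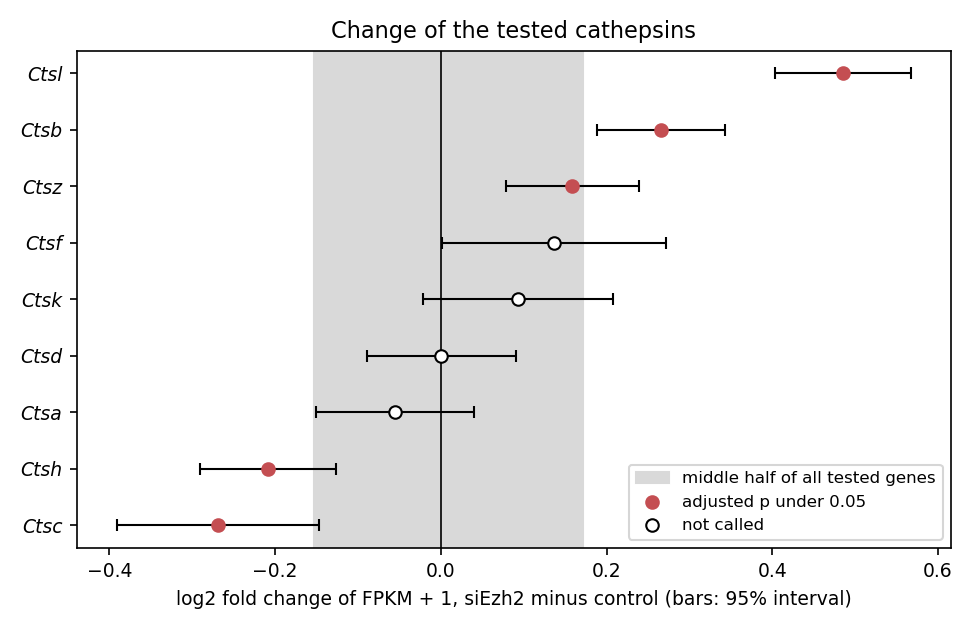
Log2 fold change of FPKM + 1, siEzh2 minus control, for the 9 tested cathepsins, with 95% intervals from limma. Filled points passed the test, and the grey band spans the 25th to 75th percentile of all tested genes (−0.15 to 0.17). Ctsl stands farthest to the right at 0.49, and Ctsd sits at 0.00.

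The cathepsins spanned a wide range of levels, from a mean of 439 FPKM (Ctsz) to 0.475 FPKM (Ctss) in control samples. On the FPKM scale, which divides by the length of all exons of a gene together, the order in control samples was Ctsz, Ctsb, Ctsd, Ctsl, Ctsk, Ctsa, Ctsh, Ctsc, Ctsf and Ctss, and it was the same in siEzh2 samples. No neighbours in that order overlapped in either group. Ctsl came closest to Ctsd after knockdown, where its highest sample (302 FPKM) was just under the lowest of Ctsd (309.6). Of the 11869 tested genes, 99.4% had a lower control mean than Ctsz, 98.7% a lower one than Ctsl and 80.2% a lower one than Ctsc.

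That order depends on the gene models. The authors' values for Ctsl give whole reads with a length of 6489 bases, whereas the longest Ctsl transcript linked to a RefSeq record has 1971 bases. With the lengths of such transcripts in place of all exons, an alternative chosen after the data had been seen, Ctsl had 695 ± 8.05 FPKM in control samples and 975 ± 20.5 after knockdown. It then ranked first, ahead of Ctsb (443 ± 3.24 in control) and Ctsz (439 ± 4.60). This rescaling moves every sample of a gene alike and leaves the ratios between groups as they were. Transcripts of different members shared exact runs of at most 19 bases in any of 45 pairs.

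Summed over the 10 cathepsins, the samples held 1698.5 to 1726 FPKM in control samples and 1915 to 1925 FPKM after knockdown. The sum was 1.12 times higher after knockdown, a description with no test. Ctsl contributed 85.0 FPKM to the difference of 206.9 FPKM, Ctsb 70.5, Ctsz 51.2 and Ctsk 13.0, while the differences of Ctsa, Ctsh and Ctsc were −5.41, −4.31 and −3.84 FPKM. The make-up of the sum shifted towards Ctsl, which held 12.3% ± 0.0590 of it in control samples and 15.4% ± 0.284 after knockdown. Ctsb went from 20.3% ± 0.281 to 21.8% ± 0.256 and Ctsd from 18.5% ± 0.362 to 16.5% ± 0.366. Ctsz, the largest part on the scale of all exons, held 25.6% ± 0.456 and 25.5% ± 0.416. With transcript lengths Ctsl had the highest level (695 FPKM in control samples and 975 after knockdown). The sum, the contributions and the shares would then differ from those given here. Shares must add up, and a lower share of Ctsd does not show less Ctsd mRNA.

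**Figure D3:**
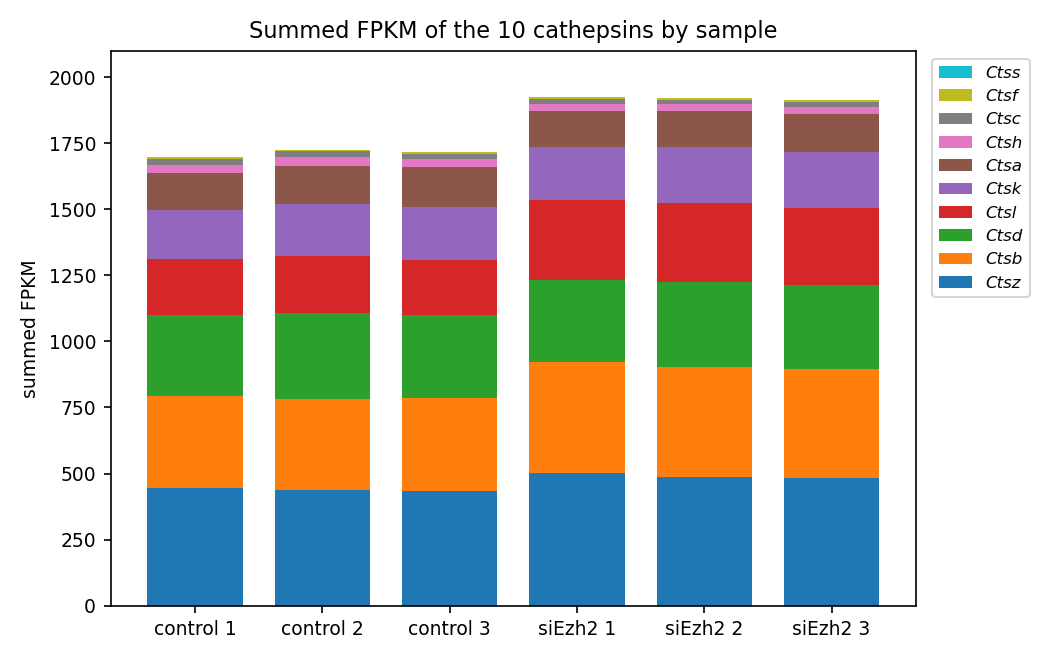
Summed FPKM of the 10 cathepsins in each of the 6 samples, stacked by gene on a linear axis from 0. The 3 siEzh2 bars reach 1915 to 1925 FPKM and the 3 control bars 1698.5 to 1726, and the red Ctsl segment is the one that thickens most.

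The 2 most abundant inhibitors moved in opposite directions. Cst3 had 481, 479.9 and 477 FPKM in control samples and 379, 384 and 383 FPKM after knockdown. All siEzh2 samples lay far below the control samples, with a log2 change of −0.33 (SE 0.0304, adjusted p = 4.76e-04). Cstb rose from 244 ± 2.36 to 275 ± 2.04 FPKM (log2 change 0.17, adjusted p = 0.00555). Within a sample, Ctsl mRNA was 0.435 to 0.446 times that of Cst3 in control and 0.755 to 0.797 times in siEzh2 samples, and Ctsb went from 0.718 to 0.731 times to 1.07 to 1.12 times. Both ratios were higher in every siEzh2 sample, as ratios of mRNA and not of enzyme to inhibitor. Over the whole inhibitor list 5 of 11 tested genes were higher, 4 lower and 2 not called, at a median log2 change of 0.07. That list also holds inhibitors of other proteases, such as Serpinb9, and 46.9% of all tested genes were called. Serpinb9, an inhibitor of granzyme B, fell from 18.7 ± 0.401 to 8.14 ± 0.914 FPKM and Kng1, a kininogen with cystatin domains, rose from 0.746 ± 0.0928 to 2.37 ± 0.448 FPKM. Kng1 reached the filter only after knockdown, so its place among the higher genes depended on that group.

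Genes that sort and process lysosomal enzymes changed in both directions, with 10 higher, 7 lower and 7 not called of 24 tested (median log2 change 0.00). The called share was 70.8%, where all tested genes had 46.9% (24.1% higher and 22.7% lower) and genes with a minimum mean of 5 FPKM 59.5%. Lgmn, the asparaginyl endopeptidase legumain that processes several cathepsins to their mature chains, rose by about as much as Ctsl. It had 76.4, 71.6 and 72.4 FPKM in control samples and 107, 109 and 107 FPKM after knockdown (log2 change 0.55, adjusted p = 1.75e-04). Igf2r, the larger mannose 6-phosphate receptor, rose from 43.1 ± 0.730 to 57.0 ± 1.35 FPKM (log2 change 0.40, adjusted p = 4.11e-04). M6pr, the smaller one, had 33.6 ± 0.555 and 34.4 ± 0.550 FPKM (adjusted p = 0.451). Sort1, sortilin, an alternative sorting receptor of some cathepsins, fell from 4.92 ± 0.252 to 2.92 ± 0.191 FPKM, and Vps26a, a subunit of the retromer that returns these receptors, rose 1.30 times. Psap, the precursor of the saposins, was the most abundant gene of the list and rose from 790.4 ± 4.09 to 960.5 ± 1.74 FPKM (log2 change 0.28, adjusted p = 7.75e-04).

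Other soluble lysosomal enzymes were more often lower than higher, with 15 lower, 10 higher and 13 not called of 38 tested (median log2 change −0.07). The mannosidase Manba rose 1.95 times, from 2.94 ± 0.153 to 5.72 ± 0.263 FPKM, and the acid ceramidase Asah1 1.27 times, from 194 ± 3.96 to 246 ± 4.43 FPKM. Gm2a, the activator protein of ganglioside breakdown, fell from 15.6 ± 0.181 to 12.2 ± 0.408 FPKM. Over the 4 lysosomal lists together 33 of 107 tested genes were higher and 33 lower, a called share of 61.7% where all genes had 46.9%, and the median log2 change was −0.03. With a minimum mean of 5 FPKM the shares were 69.5% of 95 lysosomal genes and 59.5% of all genes.

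Of the MiT factors named above Mitf alone passed the test. Tfec, listed with them among the lysosome regulators, stayed below the filter. It had 0.533 ± 0.0679 FPKM in control samples and 0.797 ± 0.0779 after knockdown, without overlap. Tfeb had 1.15, 1.17 and 1.26 FPKM in control samples and 1.16, 1.13 and 1.32 FPKM after knockdown, overlapping throughout (adjusted p = 0.937). Tfe3 had 8.31 ± 0.281 FPKM in control samples and 7.83 ± 0.384 after knockdown (adjusted p = 0.221). Mitf passed narrowly, from 3.71 ± 0.0839 to 4.14 ± 0.210 FPKM (log2 change 0.13, adjusted p = 0.0487), and lost the call under most alternatives, among them the replicate block (adjusted p = 0.0682) and leaving out any sample but siEzh2 sample 1 (adjusted p up to 0.130). In the list of lysosome regulators 5 of 18 tested genes were higher and 5 lower, a called share of 55.6% where all tested genes had 46.9%. Fnip2, a partner of folliculin, rose 1.58 times, Rraga, a GTPase that recruits mTORC1 to the lysosome, fell by 0.23 on the log2 scale and the calcium channel Mcoln1 fell by 0.17.

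**Figure D4:**
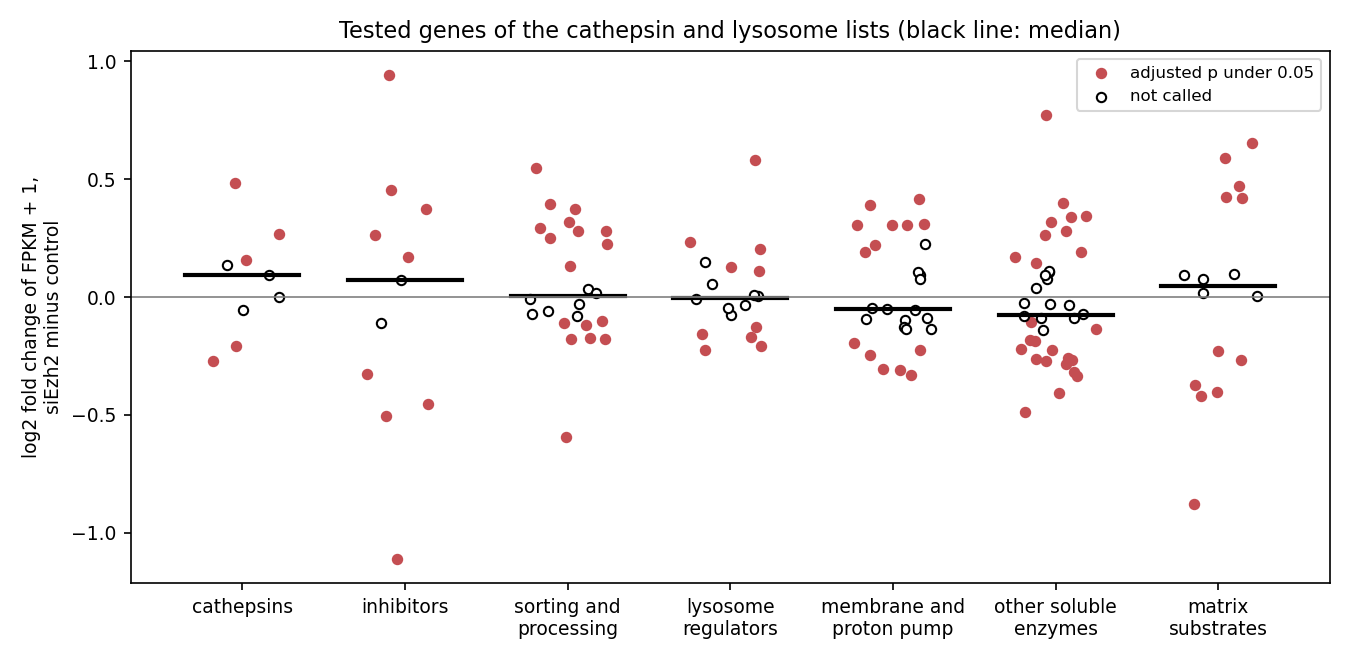
Log2 fold change of FPKM + 1, siEzh2 minus control, for each tested gene of the cathepsins, the inhibitor list, 4 lysosomal lists and the matrix substrates. Red points passed the test, open points did not, and black lines are medians. Every list holds points on both sides of 0, and the medians lie between −0.07 and 0.09.

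Matrix proteins that cathepsins can cut changed both ways. Of 16 tested genes 5 were higher and 6 lower, where 46.9% of all tested genes were called. Eln, elastin, a substrate of cathepsins K, L and S, fell from 22.3 ± 0.950 to 11.7 ± 0.400 FPKM, while Nid1 (nidogen 1) and Col3a1 (type III collagen) rose 1.58 and 1.52 times. These are mRNA levels and say nothing of cleavage.

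Other cathepsin genes were few. Of 6 genes of that list found in the tables, only Ctso and Tinagl1 were tested. Ctso, cathepsin O, had 4.19, 4.21 and 4.80 FPKM in control samples and 3.59, 3.51 and 2.89 FPKM after knockdown, and fell by 0.32 on the log2 scale (adjusted p = 0.0182). Leaving out control sample 3 ended that call (adjusted p = 0.0536). Tinagl1, a matrix protein related to cathepsin B but without its protease activity, rose from 121 ± 3.05 to 192 ± 3.66 FPKM (log2 change 0.66, adjusted p = 9.25e-05). Ctse, Ctsq, Ctsw and Tinag stayed below the filter.

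Markers of cells that are rich in cathepsins were low. Of 19 macrophage and leukocyte markers in the tables, 15 were under 0.5 FPKM in every sample. The exceptions were Lyz2, Csf1r, Cd14 and Mpeg1. Of 3 tested markers 2 were lower and 1 higher, where 46.9% of all tested genes were called. Lyz2 fell from 7.98 ± 1.12 to 3.40 ± 0.567 FPKM and Csf1r from 2.01 ± 0.309 to 0.621 ± 0.0431 FPKM. Csf1r reached the filter only in control samples, so its place in that count depended on its higher group. Cd14 rose from 2.72 ± 0.383 to 3.51 ± 0.281 FPKM (adjusted p = 0.0375), and stopped passing when any one of 4 samples was removed, controls 2 and 3 (adjusted p = 0.0903 and 0.0943) and knockdowns 1 and 3 (adjusted p = 0.0882 and 0.104). Mpeg1, below the filter, had 0.291 ± 0.0344 FPKM in control samples and 0.607 ± 0.0916 after knockdown, without overlap. Cd68, a lysosomal membrane protein abundant in macrophages that was counted with the lysosomal membrane list, rose from 5.77 ± 0.362 to 6.90 ± 0.594 FPKM (adjusted p = 0.0377). That call was lost without controls 2 or 3 (adjusted p = 0.103 and 0.108) and without knockdowns 2 or 3 (adjusted p = 0.0913 and 0.0836). The whole list summed to 13.3 to 15.9 FPKM in control samples and 8.72 to 9.40 after knockdown, and its part in the cathepsin results was not tested. Ptprc (CD45) had 0 to 0.00897 FPKM and Itgam 0 to 0.0340. Osteoclast markers were low as well, with Calcr, Dcstamp, Ocstamp and Mmp9 each at 0 in some sample, and the list summed to 6.89 to 7.30 FPKM in control samples and 13.3 to 14.6 after knockdown. Its tested members were Atp6v0d2, a proton pump subunit that rose 2.51 times, Itgb3, an integrin that rose 2.01 times, and Acp5, an acid phosphatase that fell from 1.10 ± 0.216 to 0.579 ± 0.0450 FPKM, a control mean 1.90 times the siEzh2 mean. Acp5 too was tested only because its control mean reached the filter. On the log2 scale the change of Acp5 was −0.41 with FPKM + 1, −0.81 with FPKM + 0.1 and −0.89 by limma-voom. In bulk RNA, fewer cells of a type and less RNA per cell cannot be told apart.

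By pattern over the 6 samples, the 3 genes nearest to Ctsl were Hspd1, a mitochondrial chaperone, Gnpda1, a glucosamine 6-phosphate deaminase, and Akr1b8, an aldo-keto reductase. Likeness was the root mean square difference of log2(FPKM + 1) values, each taken relative to the control mean, which was 0.0106, 0.0157 and 0.0184 for these 3 among 6894 genes whose mean reached 5 FPKM. Nearest to Ctsh were Ctnnb1 (beta-catenin), Tceal8 and Dnajc3, at 0.0137, 0.0145 and 0.0155. Such patterns were common, since 79 genes lay within 0.05 of Ctsl and 381 within 0.05 of Ctsh.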

How the data were processed

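The authors deposited 1 table of FPKM per gene for each of 6 samples, named as FPKM per the file headers, from stranded mRNA libraries per the labels' protocols. Build mm10 and the tools Cufflinks, HTSeq, HISAT2 and Trimmomatic come from the submitters' processing notes, which give no versions or order. The members and lists were chosen with earlier results of these data known. Of 27502 identifiers, 27434 (99.8%) were found in GENCODE M21, also on mm10. FPKM multiplied by its exon lengths moved in equal steps, and 98.4% to 98.5% of those below 1000 reads were whole numbers to within 0.02. A gene with no read could still have had up to 3, which is 0.160 to 0.186 CPM at this depth and covers counting error only. Near-identical copies and antisense genes may have shared reads.

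Genes reaching a mean of 1 FPKM in either group were tested with limma 3.58.1 (R 4.3.3, no covariate) on log2(FPKM + 1), which understates changes of low genes, with Benjamini-Hochberg adjustment. The test was tried on simulated data. Python 3.11.15 did the rest. Named genes are the members, Ezh2, known partners, tested genes of the other-cathepsin list, the 3 members of each other list with the smallest p and the 3 genes nearest in pattern to Ctsl and Ctsh. Others (Fdft1, Pltp, Neurl2, Cd68, Mpeg1 and genes named for low levels) were chosen after their values were seen. Alternatives were other pseudocounts, filters and scalings, trend and robust limma, limma-voom, a replicate block and leaving out each sample; levels by transcript length and by CPM were chosen with the data in view. Correlation of log2 values was 0.992 to 0.994 within groups and 0.9777 to 0.9805 between them. Reads of sample pairs within a group differed by 2.12 to 3.25 times the sampling noise (chi-square per degree of freedom), more than a library deposited again would.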

Additional observations from a re-analysis of the deposited data

How the results depend on the processing

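All 5 called cathepsins (Ctsl, Ctsb, Ctsz, Ctsh and Ctsc) kept direction and call under each of 14 alternatives, 6 of which left out 1 sample. Their log2 changes ranged from 0.47 to 0.50 for Ctsl, 0.26 to 0.28 for Ctsb, 0.14 to 0.19 for Ctsz, −0.22 to −0.19 for Ctsh and −0.30 to −0.24 for Ctsc. The number of called cathepsins was 5 under every alternative but limma-voom on recovered reads, which gave 7. Calls over all genes ranged from 4273 (minimum mean of 5 FPKM) to 6230 (limma-voom). The lower count is of 7179 genes, a share of 59.5%, where the main fit called 46.9% of 11869. Ctsd, never called, changed sign with quantile normalization (−0.013), median-ratio rescaling (−0.0092) and when control sample 1, control sample 3, siEzh2 sample 2 or siEzh2 sample 3 was left out (range over the samples left out −0.015 to 0.022). Tfeb, never called, did so with quantile normalization (−0.030), median-ratio rescaling (−2.0e-04) and when control sample 1, control sample 2 or siEzh2 sample 3 was left out (range −0.031 to 0.028). The cause was not tested. Replicate numbers did not pair the samples. The correlation of same-numbered deviations was 0.0243, 0.0695 and 0.0405, all weak, although every sample correlated best with its own number, a hint from the data and not from the design. With the replicate block 4949 genes and 5 cathepsins were called, and Ctso lost its call (adjusted p = 0.0566). Depth limits Ctss, Cd74 and Ciita.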

Other observations

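Subunits of the proton pump that acidifies the lysosome did not move as a block. Of 17 tested subunits and accessory proteins 6 were higher, 4 lower and 7 not called, at a median log2 change of −0.05. The called share of 58.8% compares with 46.9% of all tested genes and lies near the 59.5% of genes with a minimum mean of 5 FPKM. The list of 17 leaves out Atp6v0d2, listed with the osteoclast markers, which rose 2.51 times (log2 change 1.12, adjusted p = 1.85e-04). Atp6v1b2 of the catalytic head rose from 49.9 ± 0.671 to 62.0 ± 1.27 FPKM (log2 change 0.31, adjusted p = 8.60e-04). Among other membrane proteins Npc1, the cholesterol exporter, rose 1.35 times, and Lamp2, a receptor of chaperone-mediated autophagy, fell from 70.2 ± 1.19 to 55.7 ± 1.30 FPKM (log2 change −0.33, adjusted p = 7.65e-04).

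Genes of MHC class II presentation were mostly low, and 8 of 11 in the tables stayed below the filter. Cd80, a costimulatory ligand in that list, rose from 16.1 ± 0.277 to 22.6 ± 1.43 FPKM and H2-DMb1, which edits peptides on class II, fell from 5.78 ± 0.495 to 4.32 ± 0.474 FPKM. H2-DMa, its partner chain, had 2.38 ± 0.225 FPKM in control samples and 2.14 ± 0.139 after knockdown (adjusted p = 0.198). Endothelial markers Kdr and Emcn were the only tested ones of 10, at 1.11 ± 0.0889 and 1.75 ± 0.0254 FPKM in control samples and 1.55 ± 0.0555 and 1.28 ± 0.183 after knockdown.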
